A study of Mus musculus with 30 samples.

Results

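Hormone-treated osteocyte-line cells at day 35 of differentiation were compared with hormone-treated cells at day 3. The comparison takes 6 of the 30 libraries of the series, 3 at each age, chosen by their labels alone. All cells belonged to IDG-SW3, a conditionally immortalised mouse bone cell line that passes from late osteoblast to osteocyte in culture, so every library stems from 1 line. Expansion took place at 33 °C in the presence of interferon-gamma, and differentiation at 37 °C without it, in medium with ascorbic acid and a phosphate donor. For the last 24 h before harvest both groups received 100 nM 1,25(OH)2D3, the active hormone form of vitamin D3. Cells given ethanol vehicle at day 35 and day 3 (3 libraries each, same ScriptSeq v2 kit) show where the change with hormone differed. Untreated cells of the same days (3 libraries each, another kit) are set beside both. The submitters call the replicates biological but do not say what separates them, and the p-values measure the spread between these libraries.

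Osteoblasts lay down a collagen matrix and mineralize it, and some of them become buried in it as osteocytes, which regulate phosphate handling and bone remodelling. 1,25(OH)2D3 binds the vitamin D receptor, a nuclear receptor that pairs with retinoid X receptors on DNA. In bone cells the hormone is known to raise *Cyp24a1*, the enzyme that degrades it, the osteoclast-activating ligand RANKL (*Tnfsf11*) and osteopontin (*Spp1*). With hormone present at both ages, a difference between day 35 and day 3 is a difference between late and early cells that were both responding. Day 35 cells had also been longer away from the interferon-gamma and the temperature used for expansion, which cannot be told apart from age in culture.

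The libraries held 32390570 to 54325515 counted reads at day 35 and 22062866 to 30059130 at day 3. Levels below are CPM, the reads of a gene scaled to its library's total, in the order of replicates 1, 2 and 3. Changes are log2 fold changes ± SE from edgeR's quasi-likelihood fit over 12 libraries with TMM scaling, with adjusted p by Benjamini-Hochberg over all genes tested. Because the TMM factors were larger at day 3, a fitted change lies about 0.24 above the plain ratio of CPM, and the direction of changes smaller than that rests on the scaling. A count of 3 corresponds to 0.0552 to 0.0926 CPM at day 35 and 0.0998 to 0.136 CPM at day 3, a floor that covers counting error only. Genes listed at 0 in all 12 libraries included *Myc*, *Vegfa* and the ribosomal protein gene *Rpl19*, so a 0 here is only a listing, and 17 members of the lists below were listed that way.

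The day 35 libraries carried the transcripts of mineralizing bone cells. The 8 markers used for the labelled type summed to 9798 to 12261 CPM at day 35 and 1209 to 2455 CPM at day 3. The exception was *Runx2*, the early osteoblast transcription factor, which lay below the filter on low counts with 2.58, 4.38 and 2.33 CPM at day 35 and 5.94, 4.09 and 4.44 CPM at day 3. The 6 macrophage and osteoclast markers summed to at most 0.711 CPM at day 35 and 4.84 CPM at day 3. The leukocyte gene *Ptprc* was listed at 0 in all 12 libraries, which is no measure of its absence. The 4 endothelial markers summed to at most 5.62 CPM at day 35 and 9.22 CPM at day 3, and those for muscle, nerve and liver were at most 5.61 CPM in any of the 6 libraries.

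A few libraries stood apart. Background was measured from reads on 1100 genes for odorant receptors, proteins of sensory neurons. It was 0.00953, 0.123 and 0.0138 CPM per kilobase in the day 35 hormone libraries and 0.212, 0.145 and 0.202 in the day 3 hormone libraries. In vehicle cells it was 0.00789 to 0.0430 at day 35 and 0.0116 to 0.0160 at day 3. Extended over all genes, background came to 0.0720% to 0.929% of reads at day 35 and 1.09% to 1.61% at day 3, so genes near 1 CPM at day 3 are partly background. Day 3 replicate 3 also carried adipocyte transcripts, as the bars by library show. *Fabp4* (fatty acid carrier) stood at 24.8, 13.5 and 12.8 CPM at day 35, against 1.04, 1.23 and 124.9 CPM at day 3, and *Adipoq* (adiponectin) at 7.75, 4.48 and 4.98 CPM at day 35, against 0.725, 0.133 and 35.1 CPM at day 3. Whether these cells take part in other differences was not tested, and leaving that library out gave 4608 calls where the full set gave 5090. Leaving out any other single hormone library gave fewer calls, 4340 to 4548.

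**Figure D1:**
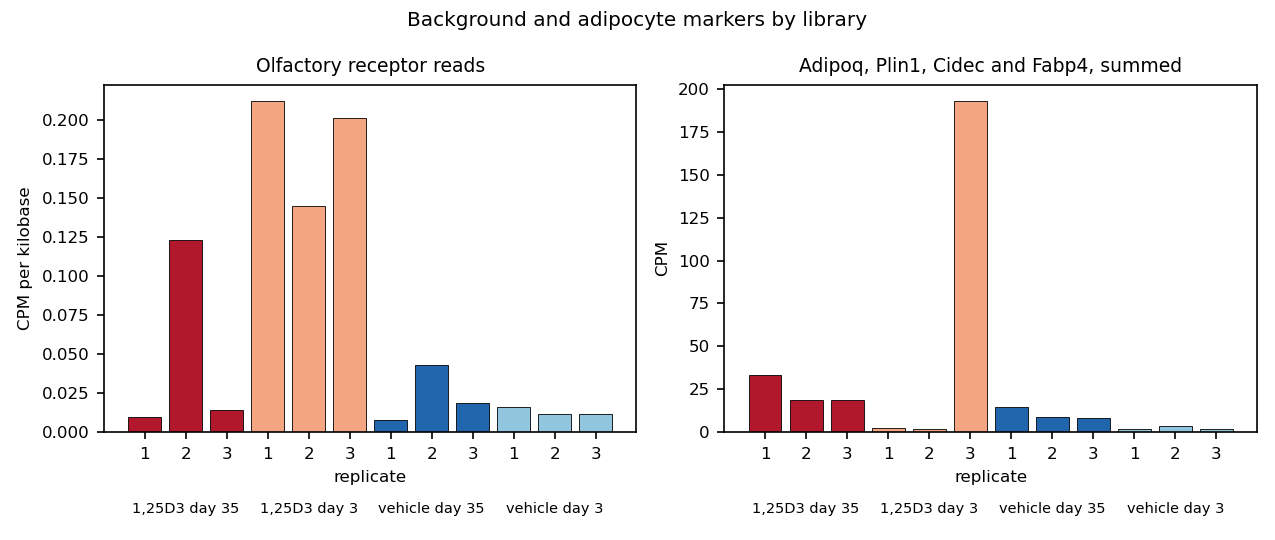
Background reads on olfactory receptor genes (left, CPM per kilobase) and the summed CPM of 4 adipocyte markers (right) in each of the 12 libraries of the hormone experiment, 1 bar a library. Background was highest in the 3 day 3 hormone libraries, and the adipocyte sum reached 193 CPM in day 3 hormone replicate 3, against at most 33.5 CPM in any other library.

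Of 9527 genes tested, 53.4% were called between hormone-treated day 35 and day 3 cells at an adjusted p below 0.05: 2548 rose (26.7%) and 2542 fell (26.7%). The median change over all genes tested was -0.02. Changes of 4-fold or more were counted among the called genes, 269 upward and 486 downward. Libraries of the groups did not overlap for 68.4% of genes. With library totals in place of TMM the split was 1722 higher and 3559 lower, at a median of -0.26. The filter asked for at least 5 CPM in all 3 libraries of a group. Both groups passed it for 7968 genes, day 35 alone for 398 and day 3 alone for 1161. Genes of the last 2 kinds entered through the group where they were high, which favours a difference without forcing it. Since these are bulk libraries, a lower level can mean fewer cells with the transcript or less of it per cell, which cannot be told apart here. Lists below are described by counts and medians, read against the shares and the median of all genes.

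Bone matrix genes rose together. Of the 22 osteoblast genes listed, 15 were tested and 13 passed the filter at both ages; 14 rose and none fell, with a median change of 2.48. *Ibsp*, bone sialoprotein, which binds mineral in the collagen matrix, showed the largest rise of all named genes before background was subtracted. Its levels were 5127, 5158 and 5143 CPM at day 35, against 26.1, 29.6 and 26.8 CPM at day 3 (log2 change 7.78 ± 0.23, adjusted p = 5.59e-10). The groups were far apart, and the 3 libraries within each were close to one another. *Bglap*, osteocalcin, stood at 408, 451 and 530.3 CPM at day 35 and 11.1, 11.9 and 9.49 CPM at day 3 (change 5.66 ± 0.34, adjusted p = 6.33e-08); its near-identical neighbours *Bglap2* and *Bglap3* make the split of reads between the copies uncertain. *Spp1*, osteopontin, had 2621, 3318 and 3652 CPM at day 35, against 149, 109 and 96.9 CPM at day 3 (change 5.00 ± 0.24, adjusted p = 9.48e-09). Here too no day 3 library came near any day 35 library.

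*Dmp1*, the osteocyte matrix phosphoprotein that favours mineral formation, reached 192, 260.0 and 270.0 CPM at day 35, where the day 3 libraries held 2.13, 2.63 and 2.47 CPM (change 6.87 ± 0.33, adjusted p = 9.48e-09). *Ibsp*, *Dmp1* and *Spp1* lie near each other on mouse chromosome 5 and belong to one family of acidic matrix phosphoproteins. The bases upstream of the start sites of these 3 genes and of *Bglap* are shown because the 4 transcripts all rose from day 3 to day 35 with hormone. They did not move alike against vehicle. At day 35 *Spp1* averaged 3197 CPM with hormone and 265 CPM with vehicle, and *Ibsp* 5143 CPM with hormone and 13102 CPM with vehicle. They are the 250 bases before the RefSeq start, build GRCm38.p6, 5′ to 3′ on the strand of the gene, and where RefSeq lists 2 starts (*Dmp1*, *Spp1*) 1 window is given. Capitals mark every match, on either strand, to ACCACA (a core bound by Runx factors), AGGTCA or GGGTCA (half-sites of nuclear receptors) and TATAAA.
Ibsp, chr5:104299037-104299286, plus strand: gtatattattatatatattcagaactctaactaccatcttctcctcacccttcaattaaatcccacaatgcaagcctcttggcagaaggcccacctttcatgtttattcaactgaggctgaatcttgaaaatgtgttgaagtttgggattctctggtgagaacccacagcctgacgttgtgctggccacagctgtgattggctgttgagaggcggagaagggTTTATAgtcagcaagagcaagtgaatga
Dmp1, chr5:104202367-104202616, plus strand: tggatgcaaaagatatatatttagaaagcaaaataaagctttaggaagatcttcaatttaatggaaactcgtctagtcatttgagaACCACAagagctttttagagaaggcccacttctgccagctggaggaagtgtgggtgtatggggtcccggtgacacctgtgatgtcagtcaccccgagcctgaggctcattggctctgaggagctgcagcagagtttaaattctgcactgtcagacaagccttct
Spp1, chr5:104434861-104435110, plus strand: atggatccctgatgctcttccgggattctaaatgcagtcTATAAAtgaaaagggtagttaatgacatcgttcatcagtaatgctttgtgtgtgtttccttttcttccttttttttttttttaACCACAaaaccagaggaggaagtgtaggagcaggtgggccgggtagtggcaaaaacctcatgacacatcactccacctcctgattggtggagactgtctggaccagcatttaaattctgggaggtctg
Bglap, chr3:88384467-88384716, minus strand: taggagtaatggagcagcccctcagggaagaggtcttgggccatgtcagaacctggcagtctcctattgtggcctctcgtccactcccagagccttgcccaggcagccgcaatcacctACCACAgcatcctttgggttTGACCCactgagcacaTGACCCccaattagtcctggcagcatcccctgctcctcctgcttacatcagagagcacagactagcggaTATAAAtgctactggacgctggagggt

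Among 32851 such windows of all genes, 14.0% held ACCACA, 14.0% AGGTCA, 11.6% GGGTCA and 12.4% TATAAA, and none of the motifs overlapped another in these 4. *Bglap* held ACCACA 132 bases before the start, GGGTCA on the opposite strand at 112 and 96 bases and TATAAA at 27 bases. *Spp1* held ACCACA at 128 and TATAAA at 211 bases, *Dmp1* held ACCACA at 164 bases, and *Ibsp* held TATAAA on the opposite strand at 28 bases. These matches describe the letters of the windows only.

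Other osteoblast genes named here rose less than these 4. *Col1a1* and *Col1a2*, the chains of type I collagen, stood at 3774, 5374 and 5925 CPM and 21306, 26429.6 and 25320.1 CPM at day 35, against 2274, 1245 and 1059 CPM and 4773, 5796 and 4852 CPM at day 3. Their changes were 1.98 ± 0.37 (adjusted p = 6.89e-04) and 2.48 ± 0.20 (adjusted p = 6.95e-07), without overlap between the groups. *Sp7* (osterix), a transcription factor of committed osteoblasts, had 20.8, 29.5 and 28.6 CPM at day 35 and 14.5, 11.9 and 11.5 CPM at day 3 (change 1.30 ± 0.23, adjusted p = 4.74e-04). *Panx3*, a channel protein of osteoblasts and cartilage cells, averaged 27.0 ± 5.62 CPM at day 35 and 5.29 ± 1.41 CPM at day 3 (SD, n = 3 each; change 2.60 ± 0.31, adjusted p = 1.82e-05).

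**Figure D2:**
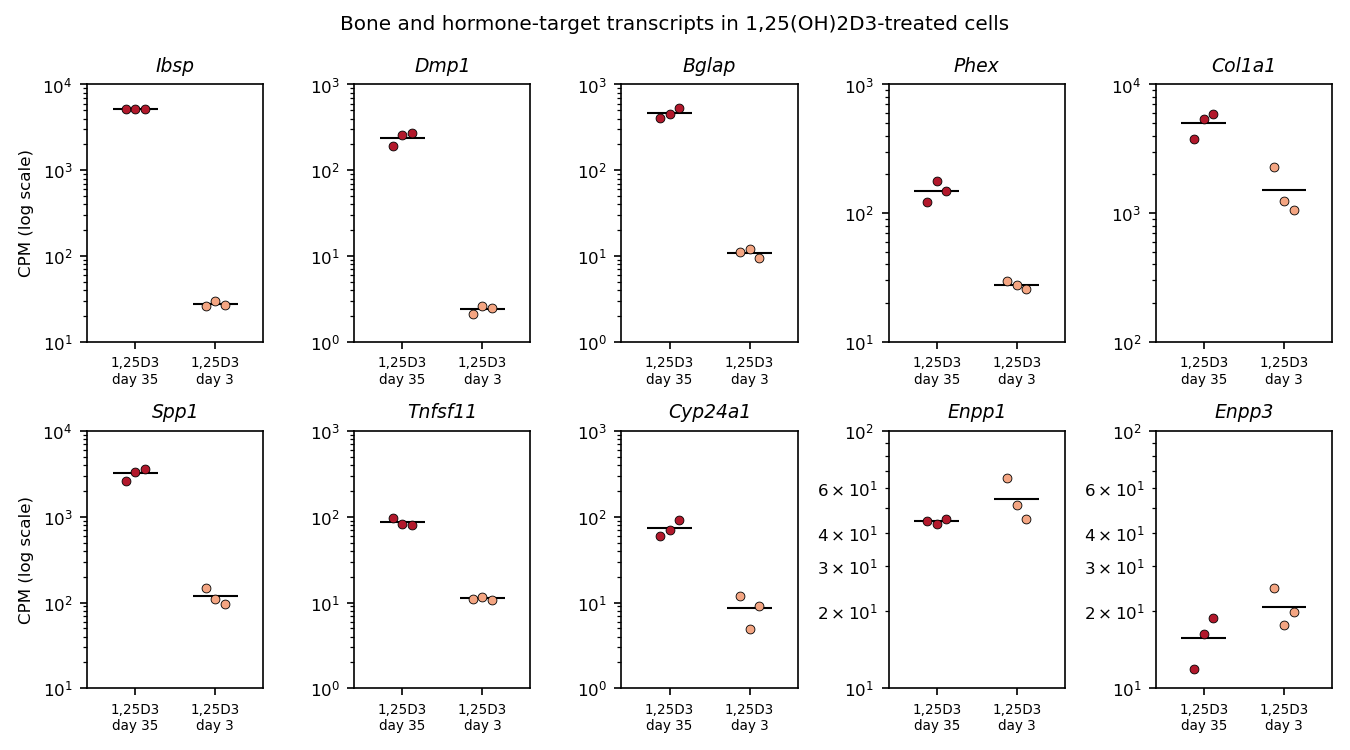
CPM on a log axis for 10 genes in hormone-treated cells, with day 35 left and day 3 right in each panel, 1 point a library and a bar at the mean of 3. Ibsp, Dmp1, Bglap, Phex, Col1a1, Spp1, Tnfsf11 and Cyp24a1 lie higher in all 3 day 35 libraries than in any day 3 library, while the CPM of Enpp1 and Enpp3 overlap between the groups.

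Osteocyte genes were measured unevenly. Of 20 listed, 10 were tested; 8 rose and 1 fell, at a median change of 1.18. Besides *Dmp1*, *Phex*, a surface endopeptidase that restrains phosphate wasting, had 121, 178 and 149 CPM at day 35, against 30.0, 27.8 and 25.6 CPM at day 3 (change 2.67 ± 0.18, adjusted p = 1.26e-07). *Gja1*, connexin 43 of the gap junctions between osteocytes, averaged 2829 ± 421 CPM at day 35 and 896 ± 90.1 CPM at day 3 (SD, n = 3 each; change 1.89 ± 0.16, adjusted p = 1.30e-06). The late osteocyte genes stayed under the filter: *Sost* (sclerostin, a secreted Wnt inhibitor) had 0, 0.370 and 0.384 CPM at day 35 and 0.725, 0.599 and 0.0334 CPM at day 3. *Mepe* had 0.147, 0.556 and 0.711 CPM at day 35 and 0.453, 0.233 and 0.434 CPM at day 3. *Fgf23*, the phosphate-regulating hormone, had 0, 0.617 and 0.577 CPM at day 35 and 0.363, 0.299 and 1.07 CPM at day 3. Levels this low lie near background, and a difference in these 3 genes was not detectable at this depth.

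Of 20 mineralization and phosphate genes 14 were tested; 10 rose and none fell, with a median change of 2.77. *Galnt3*, which glycosylates FGF23, had 63.2, 87.8 and 83.5 CPM at day 35 and 1.68, 1.96 and 1.47 CPM at day 3 (change 5.75 ± 0.26, adjusted p = 7.11e-09). *Ank*, a transporter that exports pyrophosphate and ATP from the cell, had 162, 202 and 205 CPM at day 35 and 30.0, 18.8 and 16.8 CPM at day 3 (change 3.37 ± 0.29, adjusted p = 1.16e-06). In both, every day 35 library lay far above every day 3 library. *Fam20c*, the kinase that phosphorylates secreted matrix proteins, averaged 89.2 ± 16.4 CPM at day 35 and 14.5 ± 6.32 CPM at day 3 (change 2.88 ± 0.31, adjusted p = 9.09e-06). *Smpd3*, a neutral sphingomyelinase needed for mineralization in mice, averaged 28.5 ± 2.47 CPM at day 35 and 4.49 ± 0.400 CPM at day 3 (change 2.91 ± 0.18, adjusted p = 7.58e-08). *Alpl*, the alkaline phosphatase that splits pyrophosphate, had 151, 207 and 213 CPM at day 35 and 91.4, 60.0 and 69.6 CPM at day 3 (change 1.62 ± 0.27, adjusted p = 3.28e-04). The enzymes that make pyrophosphate outside the cell were not called. *Enpp1* had 44.7, 43.5 and 45.6 CPM at day 35 and 65.7, 51.4 and 45.5 CPM at day 3 (change -0.04 ± 0.27, adjusted p = 0.913), and *Enpp3* had 11.9, 16.3 and 18.7 CPM at day 35 and 24.4, 17.7 and 19.8 CPM at day 3 (change -0.16 ± 0.38, adjusted p = 0.744); in both genes the libraries overlapped.

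Vitamin D pathway genes were higher at day 35 in most members tested. Of 26 listed, 17 were tested; 10 rose and 2 fell, with a median change of 1.21. The 10 held under every alternative run, while the 2 became 0 after background subtraction and without day 35 replicate 1 or 3, 1 without day 3 replicate 1 or 2, with edgeR's own filter, without a filter and for genes over 3 times the background, and 4 with library totals. *Vdr*, the receptor itself, had 18.1, 26.1 and 28.5 CPM at day 35 and 9.20, 4.39 and 5.85 CPM at day 3 (change 2.16 ± 0.38, adjusted p = 4.47e-04). *Cyp24a1*, the hormone-degrading hydroxylase, had 59.5, 69.3 and 92.4 CPM at day 35 and 11.8, 4.92 and 9.22 CPM at day 3 (change 3.35 ± 0.27, adjusted p = 8.17e-07). Both genes separated the groups without overlap. In vehicle cells *Cyp24a1* did not exceed 0.130 CPM in any of 6 libraries, so every library labelled with hormone carried its transcript. *Notum*, a secreted enzyme that inactivates Wnt ligands, had 22.0, 35.6 and 34.7 CPM at day 35 and 4.44, 3.79 and 3.34 CPM at day 3 (change 3.24 ± 0.22, adjusted p = 1.65e-07). *Cebpb*, a transcription factor induced by several hormones, averaged 139 ± 27.2 CPM at day 35 and 60.4 ± 11.1 CPM at day 3 (change 1.43 ± 0.18, adjusted p = 2.63e-05).

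The genes through which bone cells steer osteoclasts moved in both directions. Of 16 listed, 7 were tested; 3 rose and 1 fell, with a median change of 0.38. *Tnfsf11*, RANKL, which drives osteoclast formation, had 95.9, 83.1 and 79.4 CPM at day 35 and 10.9, 11.7 and 10.8 CPM at day 3 (change 3.18 ± 0.24, adjusted p = 3.57e-07). Its decoy receptor *Tnfrsf11b*, osteoprotegerin, had 22.5, 16.9 and 18.8 CPM at day 35 and 12.3, 7.75 and 9.75 CPM at day 3 (change 1.21 ± 0.30, adjusted p = 0.00474). Both rose without overlap, RANKL by the larger log2 change; the difference between these changes was not tested. *Il1rl1*, the receptor for interleukin 33, averaged 62.0 ± 4.28 CPM at day 35 and 27.7 ± 3.36 CPM at day 3 (change 1.39 ± 0.25, adjusted p = 5.77e-04). *Sema3a*, a secreted semaphorin that acts on nerves and bone cells, was the member that fell, with 207, 157 and 205 CPM at day 35 and 737, 632 and 555 CPM at day 3 (change -1.52 ± 0.15, adjusted p = 3.83e-06).

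Matrix genes beyond the bone list were mixed. Of 26 collagen genes 25 were tested; 16 rose and 4 fell, with a median of 0.66. The 4 that fell became 2 without day 35 replicate 2 and 1 under edgeR's own filter. *Col11a2*, a cartilage-type collagen, had 232, 216 and 219 CPM at day 35 and 2.13, 1.53 and 1.30 CPM at day 3 (change 7.32 ± 0.60, adjusted p = 8.21e-07). *Col13a1*, a membrane collagen, had 15.6, 19.8 and 24.0 CPM at day 35 and 0.272, 0.366 and 0.401 CPM at day 3 (change 6.03 ± 0.40, adjusted p = 1.30e-07). Background in the day 3 hormone libraries was 0.145 to 0.212 CPM per kilobase, so the size of the *Col13a1* change is uncertain. *Comp*, a cartilage and tendon matrix protein, averaged 163 ± 44.4 CPM at day 35 and 16.8 ± 4.00 CPM at day 3 (change 3.53 ± 0.31, adjusted p = 1.26e-06). In the chondrocyte list 7 of 16 genes were tested, of which 6 rose and 1 fell, at a median of 2.71. The tendon transcription factor *Scx* averaged 13.8 ± 0.542 CPM at day 35 and 4.13 ± 0.573 CPM at day 3 (change 1.97 ± 0.19, adjusted p = 3.58e-06), and the tendon gene *Tnmd* 27.3 ± 6.60 CPM at day 35 and 12.3 ± 2.04 CPM at day 3 (change 1.39 ± 0.20, adjusted p = 1.04e-04).

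Among 23 tested of 27 matrix protease and inhibitor genes 14 rose and 5 fell, with a median of 0.55. The protease genes named here all rose, while the lowest change in the list was -3.26. *Mmp13*, the main collagenase of bone, had 1248, 1157 and 1450.1 CPM at day 35 and 345, 262 and 258 CPM at day 3 (change 2.40 ± 0.18, adjusted p = 4.24e-07). *Mmp3*, stromelysin 1, had 92.5, 50.9 and 62.0 CPM at day 35 and 2.95, 1.70 and 2.07 CPM at day 3 (change 5.18 ± 0.42, adjusted p = 6.80e-07). *Ctsk*, the collagen-cutting cathepsin K best known from osteoclasts, averaged 538 ± 27.2 CPM at day 35 and 122 ± 24.5 CPM at day 3 (change 2.38 ± 0.15, adjusted p = 8.27e-08), and the secreted protease gene *Prss35* 99.3 ± 17.8 CPM at day 35 and 6.64 ± 1.31 CPM at day 3 (change 4.14 ± 0.16, adjusted p = 4.35e-09). *Ctsk* and the lysozyme gene *Lyz2* (31.8 ± 2.72 CPM at day 35, 5.12 ± 1.04 CPM at day 3, change 2.86 ± 0.29, adjusted p = 5.33e-06) were the 2 tested members of the macrophage and osteoclast list, whose defining markers *Csf1r* and *Calcr* stood at or under 1.74 CPM in all 6 libraries. Of 16 adipocyte genes 4 were tested and 1 rose. That gene, *Lpl* (lipoprotein lipase), had 77.9, 80.2 and 98.7 CPM at day 35 and 39.1, 38.5 and 85.9 CPM at day 3 (change 0.88 ± 0.27, adjusted p = 0.0165), with overlap through day 3 replicate 3; without that library 3 of the 4 rose.

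Wnt and BMP pathway genes changed in both directions. The genes named here all rose, while the lowest change was -1.33 in the Wnt list and -1.70 in the BMP and TGF-beta list. In the Wnt list 23 of 39 genes were tested, with 12 higher and 6 lower and a median of 0.59. The inhibitor *Wif1*, which binds Wnt proteins outside the cell, had 33.9, 71.1 and 59.4 CPM at day 35 and 0.589, 1.06 and 0.468 CPM at day 3 (change 6.49 ± 0.47, adjusted p = 2.61e-07). After background subtraction the *Wif1* change was 7.76, so its size depends on background. *Lrp4*, a receptor that presents sclerostin in bone, averaged 468 ± 83.6 CPM at day 35 and 94.3 ± 5.53 CPM at day 3 (change 2.55 ± 0.15, adjusted p = 4.76e-08). The ligand gene *Wnt5a* averaged 446 ± 31.2 CPM at day 35 and 166 ± 14.6 CPM at day 3 (change 1.66 ± 0.12, adjusted p = 2.00e-07). In the BMP and TGF-beta list 24 of 37 genes were tested, with 9 higher and 6 lower and a median of 0.02, close to that of all genes. *Bmp2*, a bone-forming ligand, had 38.5, 27.7 and 34.9 CPM at day 35 and 1.59, 1.10 and 0.835 CPM at day 3 (change 5.10 ± 0.65, adjusted p = 3.74e-05). *Bmp3*, a ligand that opposes other BMPs, had 40.9, 65.1 and 50.3 CPM at day 35 and 2.45, 1.23 and 1.77 CPM at day 3 (change 5.11 ± 0.26, adjusted p = 1.74e-08). The *Bmp3* change was 6.77 after background subtraction. *Tgfbr1*, the type I TGF-beta receptor, averaged 262 ± 12.3 CPM at day 35 and 107 ± 10.2 CPM at day 3 (change 1.52 ± 0.14, adjusted p = 1.88e-06).

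Proliferation transcripts fell in every member tested. Of 35 cell cycle genes 29 were tested and 29 fell, at a median change of -3.65. 16 of them passed the filter at both ages, so the rest entered through day 3. *Mki67*, the nuclear antigen of dividing cells, had 19.3, 22.0 and 25.0 CPM at day 35 and 952, 574 and 643 CPM at day 3 (change -4.78 ± 0.26, adjusted p = 3.17e-08). *Ccnb1* (cyclin B1, which brings on mitosis) had 5.32, 2.75 and 2.33 CPM at day 35 and 114, 94.4 and 96.2 CPM at day 3 (change -4.63 ± 0.30, adjusted p = 1.07e-07). Low but detectable levels remained at day 35, and no library overlapped. *Ccna2* (cyclin A2) averaged 10.2 ± 1.98 CPM at day 35 and 211 ± 9.58 CPM at day 3 (change -4.13 ± 0.16, adjusted p = 3.61e-09), and the kinetochore gene *Cenpf* 22.7 ± 3.37 CPM at day 35 and 396 ± 33.2 CPM at day 3 (change -3.89 ± 0.14, adjusted p = 2.70e-09). The mitotic kinase *Plk1* (-5.18 ± 0.47), the cytokinesis gene *Racgap1* (-4.86 ± 0.37), the spindle gene *Fam83d* (-4.65 ± 0.36) and the cell cycle transcription factor *Foxm1* (-4.61 ± 0.64) were among the 8 largest falls that met the naming rule. All 24 replication histone genes listed were tested and fell, at a median of -2.86, and 21 of them passed the filter at both ages. *Hist1h1b*, a linker histone, averaged 16.0 ± 0.517 CPM at day 35 and 263 ± 33.5 CPM at day 3 (change -3.81 ± 0.26, adjusted p = 1.65e-07), and *Hist1h2bb* 23.9 ± 6.11 CPM at day 35 and 327 ± 73.8 CPM at day 3 (change -3.55 ± 0.29, adjusted p = 8.70e-07), with reads shared among near-identical histone copies.

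Interferon-stimulated genes fell as well. Of 41 listed, 31 were tested and 31 fell, at a median of -2.35. Only 24 of them passed the filter at both ages, and the rest entered through day 3. *Tgtp1*, an interferon-induced GTPase with a close copy, had 21.2, 19.4 and 20.7 CPM at day 35 and 398, 353 and 386 CPM at day 3 (change -3.98 ± 0.16, adjusted p = 4.35e-09). *Rsad2* (viperin, an antiviral protein) fell least, with 15.2, 23.0 and 20.8 CPM at day 35 and 38.8, 34.5 and 38.4 CPM at day 3 (change -0.68 ± 0.16, adjusted p = 0.00356). The call on *Rsad2* was lost when no filter was applied.

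MHC class II genes, which present antigen and respond to interferon-gamma, held the largest falls of the named genes. Of 9 listed, 6 were tested and 6 fell, at a median of -3.11. Of the 6, 2 passed the filter on low counts at both ages and 4 through day 3 alone. The count was 5 with hormone libraries only, under the replicate block, and without day 35 replicate 2 or 3, any 1 day 3 replicate, or vehicle day 35 replicate 2. *H2-Eb1* had 7.20, 4.38 and 5.65 CPM at day 35 and 519, 427 and 443 CPM at day 3 (change -6.09 ± 0.25, adjusted p = 5.25e-09). *H2-Aa* had 1.93, 1.14 and 0.673 CPM at day 35 and 63.3, 54.8 and 51.4 CPM at day 3 (change -5.25 ± 0.35, adjusted p = 1.42e-07), and *H2-Ab1* averaged 28.4 ± 4.63 CPM at day 35 and 182 ± 13.0 CPM at day 3 (change -2.44 ± 0.15, adjusted p = 7.40e-08).

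Secretory stress and energy genes rose in part. In the unfolded protein and ATF4 list 20 of 23 genes were tested, 12 rose and 1 fell, with a median of 0.69. *Trib3*, a pseudokinase induced by ATF4, had 49.2, 56.6 and 71.1 CPM at day 35 and 1.59, 1.80 and 2.24 CPM at day 3 (change 5.20 ± 0.39, adjusted p = 3.79e-07). *Herpud1*, a factor in degradation of misfolded proteins, averaged 151 ± 6.91 CPM at day 35 and 43.3 ± 4.60 CPM at day 3 (change 2.03 ± 0.13, adjusted p = 1.25e-07). Of 23 glycolysis and hypoxia genes 18 were tested, 15 rose and 1 fell, with a median of 1.21. *Pdk1*, which keeps pyruvate out of the mitochondria, averaged 262 ± 35.1 CPM at day 35 and 53.3 ± 3.13 CPM at day 3 (change 2.53 ± 0.14, adjusted p = 4.28e-08), and the mitophagy gene *Bnip3* 63.5 ± 6.18 CPM at day 35 and 10.2 ± 0.583 CPM at day 3 (change 2.87 ± 0.17, adjusted p = 5.98e-08). Several glycolysis genes have processed copies elsewhere in the genome.

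Respiratory chain genes gave few calls. Of 24 listed, 21 were tested, 4 rose and none fell, at a median of 0.23; the 4 became 2, with 2 lower, under library totals, 2 without day 35 replicate 1, day 35 replicate 3 or day 3 replicate 1, and 11 of 23, with 1 lower, without a filter. *Cox4i1*, a complex IV subunit, averaged 129 ± 7.73 CPM at day 35 and 76.3 ± 8.46 CPM at day 3 (change 0.98 ± 0.16, adjusted p = 3.17e-04). Of 24 ribosomal protein genes 23 were tested and 19 rose, at a median of 0.92. *Rplp0*, a stalk protein of the large subunit, averaged 1049 ± 46.7 CPM at day 35 and 554 ± 42.8 CPM at day 3 (change 1.15 ± 0.17, adjusted p = 1.17e-04), and *Rps4x* of the small subunit 293 ± 38.7 CPM at day 35 and 178 ± 6.68 CPM at day 3 (change 0.95 ± 0.15, adjusted p = 1.68e-04); ribosomal protein genes have many processed copies, which leaves their counts uncertain. The noncoding host gene *Gas5* averaged 691 ± 45.4 CPM at day 35 and 346 ± 31.8 CPM at day 3 (change 1.23 ± 0.21, adjusted p = 3.18e-04).

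Cholesterol synthesis and contractile genes were mostly lower. Of 20 cholesterol genes 16 were tested, 12 fell and 1 rose, at a median of -0.67, and 7 fell when no filter was applied. Mevalonate kinase *Mvk* averaged 12.4 ± 0.658 CPM at day 35 and 33.4 ± 3.54 CPM at day 3 (change -1.19 ± 0.14, adjusted p = 2.49e-05). Of 12 smooth muscle type contractile genes 9 were tested, 8 fell and 1 rose, at a median of -1.74. *Acta2*, smooth muscle actin, had 78.0, 112 and 97.6 CPM at day 35 and 903, 778 and 844 CPM at day 3 (change -2.89 ± 0.22, adjusted p = 3.57e-07). The actin-binding gene *Tagln* averaged 8.38 ± 0.147 CPM at day 35 and 38.4 ± 4.44 CPM at day 3 (change -1.96 ± 0.13, adjusted p = 9.65e-08), and the myosin light chain *Myl9* 55.4 ± 2.11 CPM at day 35 and 218 ± 10.3 CPM at day 3 (change -1.74 ± 0.12, adjusted p = 1.44e-07). The member that rose was *Ctgf*, a matricellular growth factor described below. In the axon guidance list 20 of 28 genes were tested, 8 rose and 7 fell, at a median of -0.22; *Sema3e*, a repulsive guidance ligand, had 9.81, 7.07 and 4.58 CPM at day 35 and 122, 130.2 and 123 CPM at day 3 (change -3.89 ± 0.26, adjusted p = 1.45e-07).

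**Figure D3:**
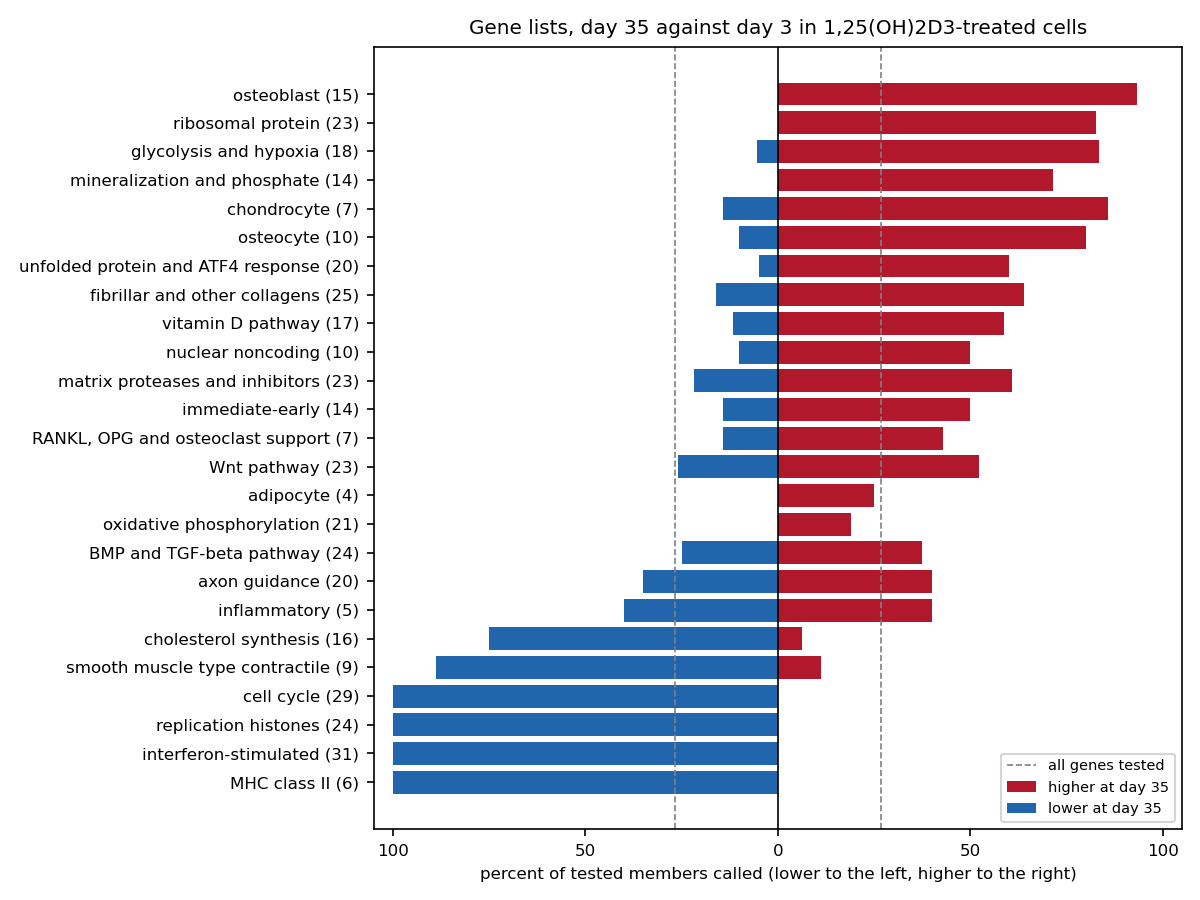
Percent of tested members of each gene list that were called higher (right) or lower (left) at day 35 against day 3 in hormone-treated cells, with the number tested in brackets. Dashed lines mark 26.7% in each direction, the share of all genes tested; the cell cycle, histone, interferon-stimulated and MHC class II lists have every tested member lower, and the osteoblast list has 14 of 15 higher. Some members of the cell cycle, histone, interferon-stimulated and MHC class II lists passed the filter at day 3 alone. Lists with fewer than 4 tested members are not drawn.

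Other genes with the largest changes had varied roles. *Slpi*, a secreted inhibitor of leukocyte proteases, had 67.7, 89.3 and 117 CPM at day 35 and 1.54, 2.30 and 0.668 CPM at day 3 (change 6.16 ± 0.38, adjusted p = 7.58e-08). *Ptgis*, prostacyclin synthase, had 47.9, 80.5 and 63.3 CPM at day 35 and 1.36, 1.10 and 0.802 CPM at day 3 (change 6.13 ± 0.41, adjusted p = 1.45e-07). *Enpp6*, a choline-specific phosphodiesterase, had 23.6, 55.0 and 42.8 CPM at day 35 and 0.725, 0.432 and 0.902 CPM at day 3 (change 6.12 ± 0.63, adjusted p = 5.69e-06). *Prex1*, an activator of Rac, had 45.1, 55.3 and 55.9 CPM at day 35 and 1.54, 0.765 and 1.10 CPM at day 3 (change 5.78 ± 0.32, adjusted p = 3.08e-08). Day 3 levels of these 4 genes did not exceed 2.30 CPM, where background takes a larger share of the reads. After background subtraction their changes were 6.30, 6.77, 13.6 and 10.5, in the same order. *Col11a2* then had 8.98 and *Ibsp* 7.78, so the size and order of the largest rises depend on background. Of 24 inflammatory genes 5 were tested, 2 rose and 2 fell, at a median of 0.36. *Ptges*, a prostaglandin E synthase, averaged 356 ± 39.6 CPM at day 35 and 121 ± 5.82 CPM at day 3 (change 1.80 ± 0.12, adjusted p = 1.52e-07), and the chemokine *Cxcl5* 3.20 ± 0.797 CPM at day 35 and 14.3 ± 0.528 CPM at day 3 (change -1.92 ± 0.28, adjusted p = 1.07e-04). In the noncoding list, where 10 of 18 genes were tested, 5 rose and 1 fell at a median of 0.80; the 5 became 3 with library totals, under the replicate block and without day 35 replicate 2 or day 3 replicate 1, and 8 of 18 without a filter. The one that fell, *Kcnq1ot1*, had 99.0, 119.7 and 123 CPM at day 35 and 422, 288 and 269.6 CPM at day 3 (change -1.27 ± 0.21, adjusted p = 3.00e-04), and its reads cannot be told from those of the overlapping *Kcnq1* where the counting of strand is not given.

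Vehicle-treated cells were then used to ask which of these changes differed when no hormone was given. On the same 9527 genes, 56.4% were called between vehicle day 35 and vehicle day 3 (27.6% higher, 28.8% lower). The change with hormone differed from the change with vehicle, in the interaction test of the same edgeR fit, for 15.4% of genes, 790 with a higher change under hormone (8.29%) and 677 with a lower one (7.11%). Without vehicle day 35 replicate 2 the count was 975, and with library totals the split was 498 higher and 1255 lower. In the vitamin D list 7 of 17 genes tested had a higher change with hormone and 1 a lower one, in the osteoblast list 1 was higher and 2 were lower, and in the interferon list 13 of 31 had a higher one, that is, a smaller fall.

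Among hormone-target and mineral genes, *Tnfsf11*, *Notum*, *Spp1*, *Dmp1*, *Cyp24a1* and *Ank* had a higher change between day 35 and day 3 with hormone than with vehicle. Hormone against vehicle within an age was not tested. *Tnfsf11* had 11.4, 6.43 and 5.02 CPM in vehicle cells at day 35 and 9.65, 7.68 and 10.5 CPM at day 3 (change -0.28 ± 0.22, adjusted p = 0.305), so its change was higher with hormone by 3.46 ± 0.32 (adjusted p = 1.78e-05). *Notum* had 2.75, 2.71 and 2.92 CPM in vehicle cells at day 35 and 2.99, 3.37 and 3.44 CPM at day 3, a difference between the changes of 3.45 ± 0.30 (adjusted p = 1.13e-05). In both genes the day 35 hormone libraries alone were high, and the other 3 groups lay close together. *Spp1* had 307, 255 and 234 CPM in vehicle cells at day 35 and 25.7, 43.4 and 28.3 CPM at day 3 (difference 1.95 ± 0.29, adjusted p = 6.56e-04), and *Dmp1* had 115, 178 and 207 CPM in vehicle cells at day 35 and 3.86, 6.92 and 5.10 CPM at day 3 (difference 1.85 ± 0.38, adjusted p = 0.0056). *Cyp24a1* had 0.0277, 0.0687 and 0.0356 CPM in vehicle cells at day 35 and 0.0887, 0.130 and 0.108 CPM at day 3 (difference 4.61 ± 0.80, adjusted p = 0.00196), a few reads that leave the size of that difference uncertain. *Ank* averaged 190.1 CPM with hormone and 59.2 CPM with vehicle at day 35, and 21.9 CPM with hormone and 37.9 CPM with vehicle at day 3 (difference 2.71 ± 0.38, adjusted p = 4.45e-04). The *Vdr* change was not called different (0.59 ± 0.52, adjusted p = 0.505), nor was that of *Tnfrsf11b* (0.27 ± 0.41, adjusted p = 0.715), whose level was lower in every hormone library than in any vehicle library of the same day.

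Immediate-early genes fell with age in vehicle cells and mostly did not in hormone-treated cells. In the immediate-early list 14 of 22 genes were tested; 7 rose and 2 fell with hormone (median 0.54), 13 fell with vehicle (median -2.40), and the change with hormone was higher in 12. *Ctgf*, from the contractile list, had 318, 339.9 and 341 CPM with hormone at day 35 and 21.9, 12.4 and 14.5 CPM with hormone at day 3, and 139, 109 and 111 CPM with vehicle at day 35 and 792, 2181 and 1276 CPM with vehicle at day 3. The changes were 4.60 ± 0.32 with hormone and -3.54 ± 0.30 with vehicle (difference 8.14 ± 0.44, adjusted p = 3.98e-07). *Ptgs2*, cyclooxygenase 2, had with hormone 30.3, 27.1 and 28.6 CPM at day 35 and 27.1, 25.7 and 26.4 CPM at day 3 (change 0.36 ± 0.18, adjusted p = 0.118), while vehicle cells had 36.0, 19.1 and 19.2 CPM at day 35 and 1425, 1606 and 1779 CPM at day 3 (difference 6.37 ± 0.28, adjusted p = 5.00e-08). In this gene vehicle day 3 stood alone, far above the other 3 groups.

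Other transcription factor and growth factor genes also had a higher change with hormone. *Maff*, a small basic leucine zipper factor, averaged 28.4 CPM with hormone at day 35 and 6.40 CPM with hormone at day 3, and 14.2 CPM with vehicle at day 35 and 159 CPM with vehicle at day 3 (difference 5.86 ± 0.23, adjusted p = 2.27e-08). *Hbegf*, an EGF receptor ligand, averaged 14.8 CPM with hormone at day 35 and 3.02 CPM with hormone at day 3, and 11.4 CPM with vehicle at day 35 and 87.2 CPM with vehicle at day 3 (difference 5.46 ± 0.34, adjusted p = 9.54e-07). The differences for the stress factor *Atf3* (4.71 ± 0.31, adjusted p = 1.22e-06) and the AP-1 subunit *Fosl2* (2.86 ± 0.23, adjusted p = 5.94e-06) had the same sign. *Fos*, the founding AP-1 subunit, averaged 5.57 CPM with hormone at day 35 and 11.2 CPM with hormone at day 3, a fall with both treatments that was smaller with hormone (difference 2.03 ± 0.28, adjusted p = 3.86e-04); its fall with hormone was no longer called under edgeR's own filter or without a filter. *Klf4* fell with hormone (-1.32 ± 0.28, adjusted p = 0.00153) and was not called different from vehicle (0.20 ± 0.38, adjusted p = 0.787). Background also differed at day 3, with at least 0.145 CPM per kilobase in hormone libraries and at most 0.0160 in vehicle libraries. After subtraction of background the differences of *Ctgf*, *Ptgs2*, *Maff* and *Hbegf* were 8.16, 6.38, 5.92 and 5.71. Subtraction takes most from the hormone day 3 libraries and so tends to widen these differences, which makes it no check on them. Whether the day 3 libraries of the 2 treatments differed in handling was not tested.

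**Figure D4:**
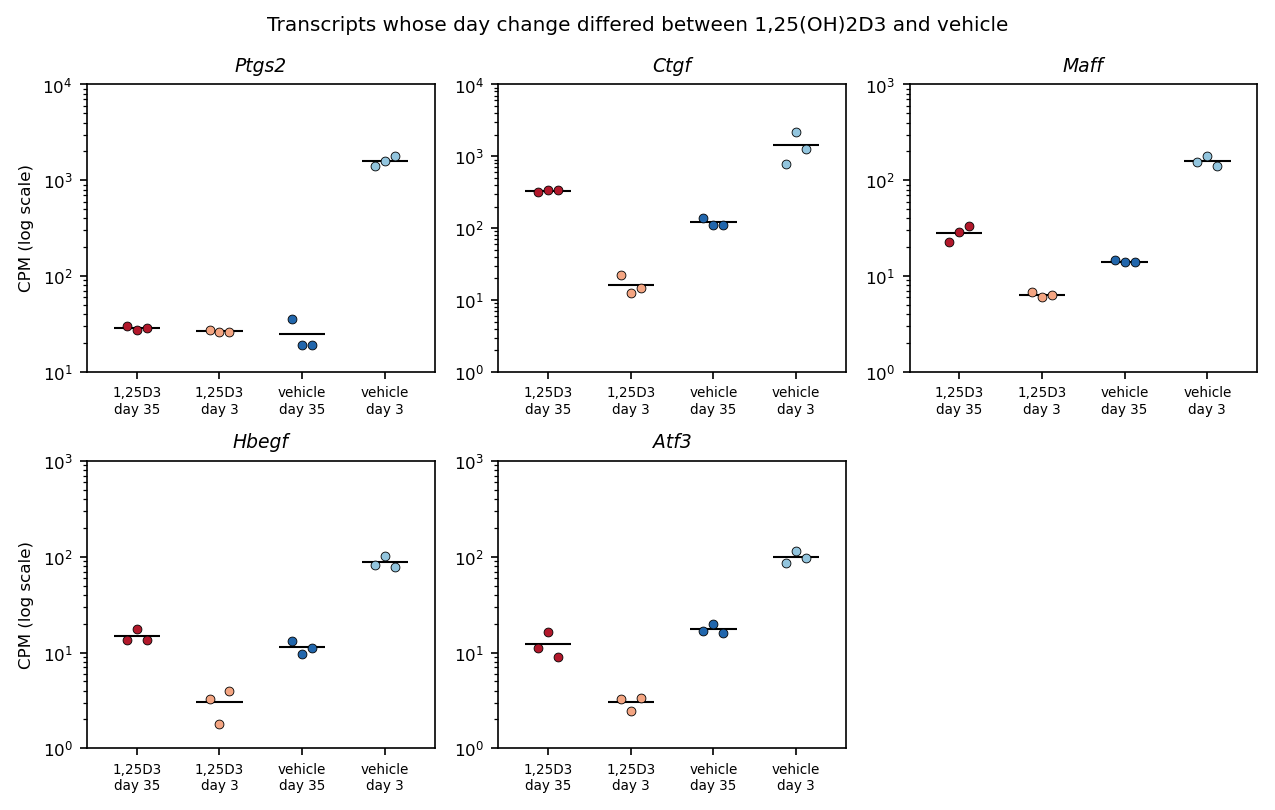
CPM on a log axis for 5 genes in the 4 groups of the hormone experiment, hormone left of vehicle and day 35 left of day 3, 1 point a library and a bar at the mean of 3. The vehicle day 3 libraries are highest in every panel and the hormone day 3 libraries lowest in all panels but Ptgs2, where hormone-treated cells hold 25.7 to 30.3 CPM at both ages.

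*Sp7*, *Panx3* and *Smpd3* had a lower change with hormone than with vehicle, and *Panx3* and *Smpd3* were chosen after their values were seen. *Sp7* had 75.6, 83.1 and 54.2 CPM in vehicle cells at day 35 and 4.26, 8.37 and 6.15 CPM at day 3 (difference -2.22 ± 0.32, adjusted p = 5.76e-04). *Panx3* averaged 107 CPM in vehicle cells at day 35 and 3.62 CPM in vehicle cells at day 3 (difference -2.29 ± 0.42, adjusted p = 0.00268), and *Smpd3* 187 CPM at day 35 and 4.77 CPM at day 3 (difference -2.41 ± 0.24, adjusted p = 3.30e-05). At day 35 every hormone library lay below every vehicle library in these 3 genes, and at day 3 *Sp7* was higher with hormone. For *Bmp3* (difference -5.65 ± 0.46, adjusted p = 5.94e-06), *Galnt3* (-4.54 ± 0.43, adjusted p = 1.96e-05), the potassium channel *Kcnk1* (-5.87 ± 0.92, adjusted p = 9.59e-04), the receptor phosphatase *Ptprz1* (-7.12 ± 0.82, adjusted p = 9.64e-05) and the receptor *Gpr141* (-4.92 ± 0.72, adjusted p = 5.69e-04) the day 3 libraries held few reads. Over 3 libraries *Bmp3* had 144 counts with hormone and 10 with vehicle at day 3, and *Kcnk1* had 49 counts with hormone and 4 with vehicle. The lengths used for these transcripts were 6609 and 2235 bases. Day 3 background was 4.35 to 6.04 reads per kilobase in each hormone library and 0.537 to 0.719 in each vehicle library. Much of these day 3 counts can be background, so they are no measure of a higher level with hormone. At day 35 *Bmp3* averaged 52.1 CPM with hormone and 129.6 CPM with vehicle, and *Kcnk1* 15.7 CPM with hormone and 56.2 CPM with vehicle. After subtraction of background the difference was still called for these 5 genes, but not for *Prex1* (-0.94, adjusted p = 0.712) or *Col13a1* (0.83, adjusted p = 0.654), which had 11 and 4 counts in vehicle day 3 cells. The *Bmp3* difference widened to -8.52 after subtraction. *Bmp3*, *Kcnk1* and *Ptprz1* had 10, 4 and 14 counts in vehicle day 3 cells, of which subtraction can leave almost none. Their retained calls are therefore no check on these differences.

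*Lars2*, the mitochondrial leucyl-tRNA synthetase, gave the most negative difference of the named genes (-7.47 ± 1.87, adjusted p = 0.0173), and single libraries weighed on its size. It had 37.4, 20.3 and 33.9 CPM with hormone at day 35, 49.7, 408 and 108 CPM with hormone at day 3, 36.0, 1586 and 21.4 CPM with vehicle at day 35 and 15.0, 18.2 and 17.8 CPM with vehicle at day 3. Replicate 2 was far above its group in hormone day 3 and vehicle day 35, and without that vehicle library the vehicle change was 0.75 and no longer called. The difference between the changes stayed called with each library left out singly, but not under the replicate block (-4.76).

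**Figure D5:**
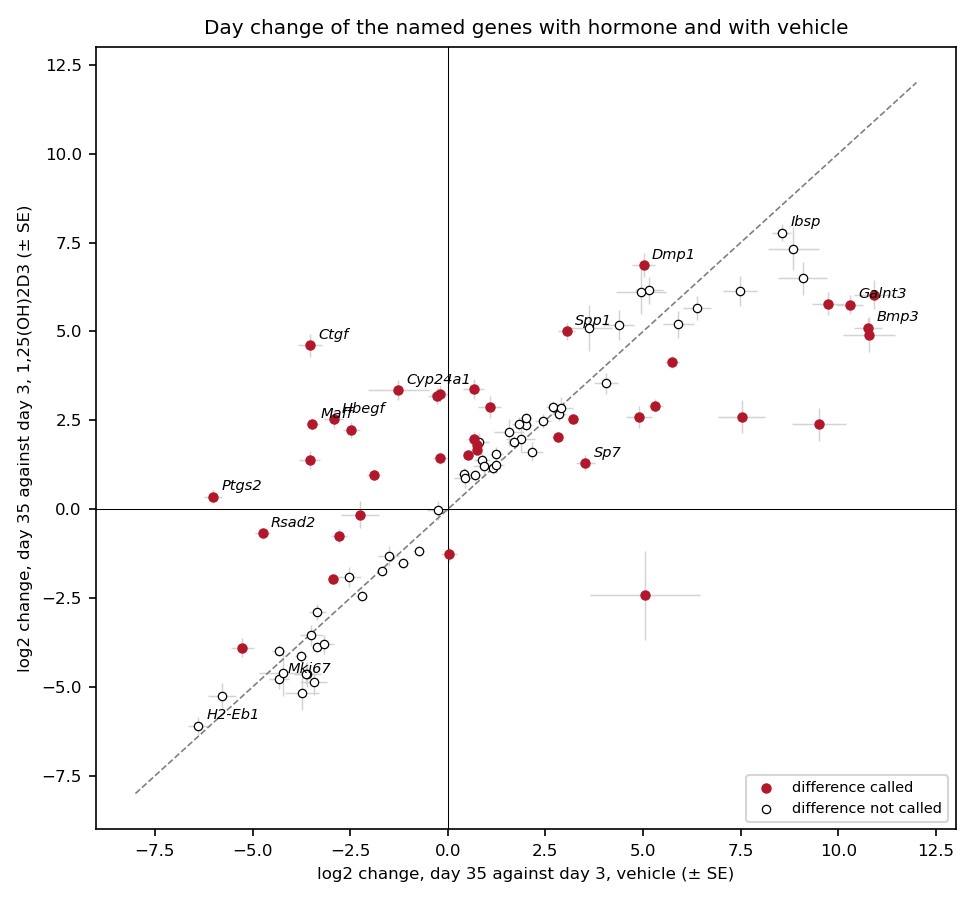
Log2 change from day 3 to day 35 with vehicle (x axis) and with hormone (y axis) for the named genes that were tested, ± SE of the edgeR fit, with red points where the 2 changes were called different. Points on the dashed line changed alike; Ctgf and Ptgs2 lie far above it and Galnt3, Bmp3 and Sp7 below it.

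Untreated cells gave a separate set of day 35 and day 3 libraries, measured in RPKM with another kit. On log2(RPKM + 0.5) with limma, 51.1% of 9933 genes were called (29.5% higher, 21.5% lower) after each library was centred on its median. With the values as listed the calls were 559 higher and 5117 lower and the median change was -0.69, so the split between directions depends on the centring. Of the hormone calls, 3875 were genes tested in untreated cells too, and 2244 were called in both, which is 57.9% of those hormone calls and 60.3% of the 3720 untreated calls on shared genes. Directions matched for 1905 of the 2244 (84.9%) and were opposite for 339; with the values as listed they matched for 1895 of 2470 (76.7%). *Ibsp* had 45.3 ± 17.6 RPKM in untreated cells at day 35 and 0.483 ± 0.213 RPKM at day 3 (limma change 6.31 ± 0.34, adjusted p = 7.43e-10), and *Mki67* had 1.90 ± 0.843 RPKM at day 35 and 30.4 ± 4.80 RPKM at day 3 (change -2.91 ± 0.19, adjusted p = 5.99e-09). *Ptgs2* had 0.898 ± 0.377 RPKM in untreated cells at day 35 and 58.7 ± 6.23 RPKM at day 3 (change -4.61 ± 0.18, adjusted p = 5.17e-11), and *Ctgf* had 12.6 ± 3.00 RPKM at day 35 and 238 ± 23.0 RPKM at day 3 (change -3.39 ± 0.18, adjusted p = 5.42e-10). For both genes the untreated and the vehicle changes had the same sign. *Tnfsf11* was not called in untreated cells (-0.21 ± 0.22, adjusted p = 0.455), but was called lower with the values as listed (-1.03, adjusted p = 0.00637). By their names the untreated libraries of replicates 2 and 3 were run apart for day 35 and day 3, so run and day cannot be told apart in them.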

How the data were processed

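RNA from IDG-SW3 cells was depleted of rRNA and sequenced, per the labels' protocols. Per the submitters' processing notes reads were aligned with TopHat to mm9; the version and the counting steps are not given in the sources used here. The 12 deposited tables of the hormone experiment hold raw counts per gene, although named otherwise, and the 18 deposited tables of untreated cells hold RPKM, both units read from the values. Rows were summed per symbol (25410 symbols; 40 rows whose symbol reads as a date were left as listed), and for RPKM the row with the highest mean was kept. No per-sample column was left unused.

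Counts were tested with edgeR (4.0.16) in R 4.3.3: quasi-likelihood F tests, TMM, 1 mean per group over 12 libraries (8 residual degrees of freedom), genes with at least 5 CPM in all 3 libraries of either hormone group, and an interaction contrast. The SE is the absolute change divided by the root of F. For untreated cells limma (3.58.1, trended moderation) was run on log2(RPKM + 0.5) after centring every library on its median, over 18 libraries (12 residual degrees of freedom) and genes reaching 1 RPKM in 3 or more of them; such changes understate those of low genes. The depth behind RPKM is not known. P-values are two-sided and were adjusted by Benjamini-Hochberg, with calls at 0.05. The tests were checked on simulated data. For edgeR, 100 of 9527 genes were changed 2-fold and 100 were changed 4-fold in the day 35 hormone group. Of these 69% and 99% were recovered, and 2.89% of calls were false. In the data 53.4% of genes were called, so the simulation does not test the scaling under so many changes.

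The members, the 30 lists and the rules were chosen with earlier results of these data known. Named genes were the 8 largest changes each way among called genes without overlap, at 20 CPM or more and still called after background subtraction, the 5 largest interactions each way, for every list its 2 called members of smallest adjusted p, and 20 bone and vitamin D genes whatever their result. Another 18 members were named after their values were seen: *Fam20c*, *Ank*, *Panx3*, *Smpd3*, *Il1rl1*, *Fosl2*, *Fos*, *Klf4*, *Mmp3*, *Mmp13*, *Rsad2*, *Acta2*, *Gja1*, *Bmp2*, *Wnt5a*, *Cebpb*, *Cxcl14* and *Cd9*. Some genes that these rules select are not reported here. Alternatives were DESeq2 (1.42.0), library totals without TMM, other filters, hormone libraries only, a replicate block, background subtracted per kilobase or genes over 3 times background, the highest row per symbol, another pseudocount, and each library left out. Promoter windows are RefSeq's; 69 of the 94 named genes had one.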

Additional observations from a re-analysis of the deposited data

Results flagged for a closer look

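For 39 of the named genes the change between day 35 and day 3 with hormone differed from that with vehicle, by the interaction test of the edgeR fit. Values are the log2 change with hormone minus the log2 change with vehicle. Prostaglandin and early-response genes and secreted factors had a higher change with hormone: *Ctgf* (8.14), *Ptgs2* (6.37), *Maff* (5.86), *Hbegf* (5.46), *Il1rl1* (4.93), *Atf3* (4.71), *Fosl2* (2.86), *Fos* (2.03), *Cebpb* (1.64) and *Ptges* (1.04). The hormone targets and mineral genes with a higher change were *Cyp24a1* (4.61), *Tnfsf11* (3.46), *Notum* (3.45), *Ank* (2.71), *Enpp3* (2.09), *Spp1* (1.95), *Dmp1* (1.85) and *Fam20c* (1.80). The interferon-stimulated gene *Rsad2* (4.06), the signalling genes *Tgfbr1* (1.01) and *Wnt5a* (0.92), *Sema3e* (1.37), *Scx* (1.29) and *Tagln* (0.98) also had a higher change.

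A lower change with hormone was found for *Lars2* (-7.47), *Ptprz1* (-7.12), *Kcnk1* (-5.87), *Bmp3* (-5.65), *Gpr141* (-4.92), *Col13a1* (-4.88), *Galnt3* (-4.54) and *Prex1* (-3.96). Except for *Lars2*, these had at most 39 counts over the 3 vehicle day 3 libraries. *Smpd3* (-2.41), *Panx3* (-2.29) and *Sp7* (-2.22) also had a lower change, as did *Prss35* (-1.59), *Kcnq1ot1* (-1.29), *Herpud1* (-0.78) and *Pdk1* (-0.67).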

How the results depend on the processing

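The count of called genes between hormone-treated day 35 and day 3 cells stayed within 1.5 times of 5090 under every alternative run: 4340 to 5553 with single libraries left out, 5305 by DESeq2, 4816 after background subtraction and 5891 without a filter. The split did move: 1722 higher and 3559 lower with library totals, and 3664 higher and 2227 lower without a filter. Vehicle calls ranged over 4532 to 5629 with single libraries left out. The difference between the changes ranged over 975 to 1685 calls with single libraries left out, and the count of 975 came without vehicle day 35 replicate 2. Untreated calls ranged over 4308 to 4776 with single libraries left out and rose to 11227 of 18732 genes without a filter (8251 higher, 2976 lower). With the untreated values as listed, the split of 2934 higher and 2139 lower became 559 higher and 5117 lower. *Col13a1* reversed in its difference between changes after background subtraction (0.83, from -4.88), where vehicle day 3 held 4 counts; the cause was not tested. *Ptgs2* was called with hormone libraries only (0.34), without a filter (0.65) and without vehicle day 35 replicate 1 (0.34). *Lpl* lost its call with library totals (0.65) and without day 35 replicate 3 (0.76), day 3 replicate 1 (0.67) or day 3 replicate 2 (0.71). The difference between changes was no longer called under the block for *Enpp3* (2.00), *Lars2* (-4.76) and *Pdk1* (-0.67). *Enpp3* also lost it with library totals (1.85) and with 10 of the 12 libraries left out singly (1.55 to 2.28), and *Pdk1* with edgeR's own filter (-0.53), without a filter (-0.39) and with 8 of the 12 left out (-0.69 to -0.56). *Herpud1* lost it with edgeR's own filter (-0.63) and without a filter (-0.50), and *Sema3e* without vehicle day 35 replicate 1 (1.14) or 3 (1.35).

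Same-numbered replicates did not deviate together (correlations of -0.21, -0.17 and -0.16, and no library correlated best with its own number), so the numbers were not taken to pair samples. With the replicate block the calls were 4738 for hormone (2351 higher, 2387 lower) and 1232 for the difference between changes. Depth limits *Sost*, *Mepe* and *Fgf23* and the day 3 level of genes near background, where a few reads set the size of a fold change.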

Other observations

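Some genes rose in both arms of the hormone experiment but fell in untreated cells. They were picked from the 339 opposite calls after their values were seen. *Cxcl14*, a chemokine, had 155, 123 and 141 CPM with hormone at day 35 and 62.7, 55.4 and 49.0 CPM at day 3 (change 1.56 ± 0.17, adjusted p = 1.05e-05 by edgeR). With vehicle its change was 1.24 ± 0.17 (adjusted p = 5.59e-05), and in untreated cells it had 0.688 ± 0.307 RPKM at day 35 and 7.24 ± 1.38 RPKM at day 3 (change -1.90 ± 0.34, adjusted p = 2.28e-04 by limma). *Cd9*, a tetraspanin of the cell surface, had 375, 321 and 362 CPM with hormone at day 35 and 79.1, 127 and 128 CPM at day 3 (change 1.89 ± 0.26, adjusted p = 7.08e-05). With vehicle its change was 0.81 ± 0.25 (adjusted p = 0.0166), a call lost without vehicle day 35 replicate 3 (0.61) or vehicle day 3 replicate 2 (0.60), and in untreated cells it had 0.786 ± 0.0975 RPKM at day 35 and 6.08 ± 1.25 RPKM at day 3 (change -1.52 ± 0.22, adjusted p = 2.58e-05). *Ank*, described above, belonged to the same kind. Its change was 3.37 with hormone and 0.66 with vehicle (adjusted p = 0.0486 by edgeR). In untreated cells the change of *Ank* was -1.27 (adjusted p = 1.07e-04 by limma). The experiments differ in kit, unit and exposure to ethanol, and the difference between them was not tested.

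*Wif1* averaged 54.8 CPM with hormone and 17.2 CPM with vehicle at day 35, and its difference between changes was not called (-2.60 ± 0.92, adjusted p = 0.0789), with 4 counts over the vehicle day 3 libraries. *Enpp1* averaged 44.6 CPM with hormone and 6.97 CPM with vehicle at day 35, and 54.2 with hormone and 8.30 CPM with vehicle at day 3, so its level was higher in every hormone library than in every vehicle library at both ages. *Enpp3* had 15.6 CPM with hormone and 0.376 CPM with vehicle at day 35, and 20.7 with hormone and 1.83 CPM with vehicle at day 3.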
